A study of Mus musculus with 4 samples.

Results

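Untreated mammary organoids from mice with 1 mutated copy of Brca2 were compared with untreated wild-type organoids, gene by gene and within each epithelial lineage. The Brca2mut/WT control library and the wild-type control library were filtered for cells with 1000 to 6000 detected genes and under 5% of unique molecular identifiers (UMIs) on mitochondrial genes. This kept 4138 of 8113 Brca2mut/WT cells and 5312 of 9358 wild-type cells, which together made 9450 of the 17360 cells that passed in all 4 libraries of the series. The other 2 libraries held the same genotypes after hydroxyurea (HU), which stalls DNA replication, and are given only beside the untreated values.

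The Brca2mut/WT mice were virgin females with a germline truncating mutation in 1 Brca2 allele, and the wild-type mice were their littermates. Organoids were established from mice aged 9 to 11 months, frozen, thawed and cultured for 3 days before capture on the 10x Chromium platform. Neither control library received HU. The study profiled organoids of passage 0 and passage 4 of each genotype, with and without HU. The 4 libraries are named by genotype and treatment only, so a library can hold both passages. The labels do not give the passage of a library or tag, and the part of passage in the genotype ratios was not tested. Each sample title gives 2 replicates, whereas each library carries 4 antibody tags, and no key to the tags was used here. Cells with 1 tag were therefore treated as 4 unlabelled pools per library, and the same tag number in both libraries was not taken to mean the same passage or animal.

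With 1 library per genotype, no test between the genotypes was possible and no p-value is given. Levels are the UMIs of a gene summed over the cells of a gate, per 1000000 UMIs of that gate (CPM). A gene was called higher or lower where it reached 20 CPM in 1 of the libraries, differed by at least 1.5-fold on the log2(CPM + 1) scale, and had separate exact Poisson 95% intervals. Fold values in the text are ratios of CPM with a 95% interval in brackets. These intervals cover counting error only, and not the spread between animals, pools or cells. The values of the tag pools are shown for the spread within a library. All pools of a genotype come from 1 library, so a difference between genotypes cannot be told apart from a difference between libraries.

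The mammary epithelium has an outer basal (myoepithelial) layer, which contracts and rests on the basement membrane, and an inner luminal layer. Hormone receptor-positive (HR+) luminal cells sense oestrogen and progesterone and signal to their neighbours, whereas HR- luminal cells include alveolar progenitors that make milk proteins. Brca2 acts in the repair of DNA breaks by homologous recombination and protects stalled replication forks.

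Cells were placed in a lineage by Krt14, a basal keratin, and Areg, an epidermal growth factor receptor ligand of HR+ cells. Basal cells had at least 500 CPM of Krt14, HR+ luminal cells at least 300 CPM of Areg, and HR- luminal cells under 300 CPM of both. The gates held 4209 wild-type and 3592 Brca2mut/WT HR- luminal cells, 757 and 336 basal cells, and 224 and 140 HR+ luminal cells. Of 10 other basal markers, 9 in the wild-type and 10 in the Brca2mut/WT library were highest in the basal gate. All 10 HR+ markers were highest in the HR+ gate of both libraries, and 9 and 8 of 10 HR- markers in the HR- gate. Among the HR+ markers, Tnfsf11 was only 0.197 CPM in the wild-type and 5.23 CPM in the Brca2mut/WT HR+ gate. Both libraries had similar depth, with a median of 24180 UMIs per kept wild-type cell and 24576 per kept Brca2mut/WT cell. They shared 7 barcodes among kept cells. In the HR- gate the summed immune markers reached 0.510 CPM in wild-type and 0.312 CPM in Brca2mut/WT, and the fibroblast markers 10.7 and 9.45 CPM.

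The Brca2mut/WT library held more HR- luminal and fewer basal cells, but the tag pools of each library differed from each other by more than the libraries did. The HR- gate took 79.2% of wild-type cells (Clopper-Pearson 95% interval 78.1 to 80.3) and 86.8% of Brca2mut/WT cells (85.7 to 87.8). Across tag pools 1 to 4 it took 91.1%, 65.8%, 91.0% and 51.0% of wild-type cells and 93.1%, 99.1%, 88.3% and 66.8% of Brca2mut/WT cells. The ranges of the pools overlapped. The basal gate took 14.3% of wild-type and 8.12% of Brca2mut/WT cells. Its share was 5.20%, 19.9%, 5.93% and 40.2% in the wild-type pools and 5.14%, 0.146%, 10.0% and 19.2% in the Brca2mut/WT pools, so that Brca2mut/WT pool 2 was nearly devoid of basal cells, with 1 cell of 687. HR+ cells made up 4.22% and 3.38%, and were found mainly in wild-type pools 2 and 4 (15.2% and 9.14%) and Brca2mut/WT pool 4 (14.4%).

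**Figure D1:**
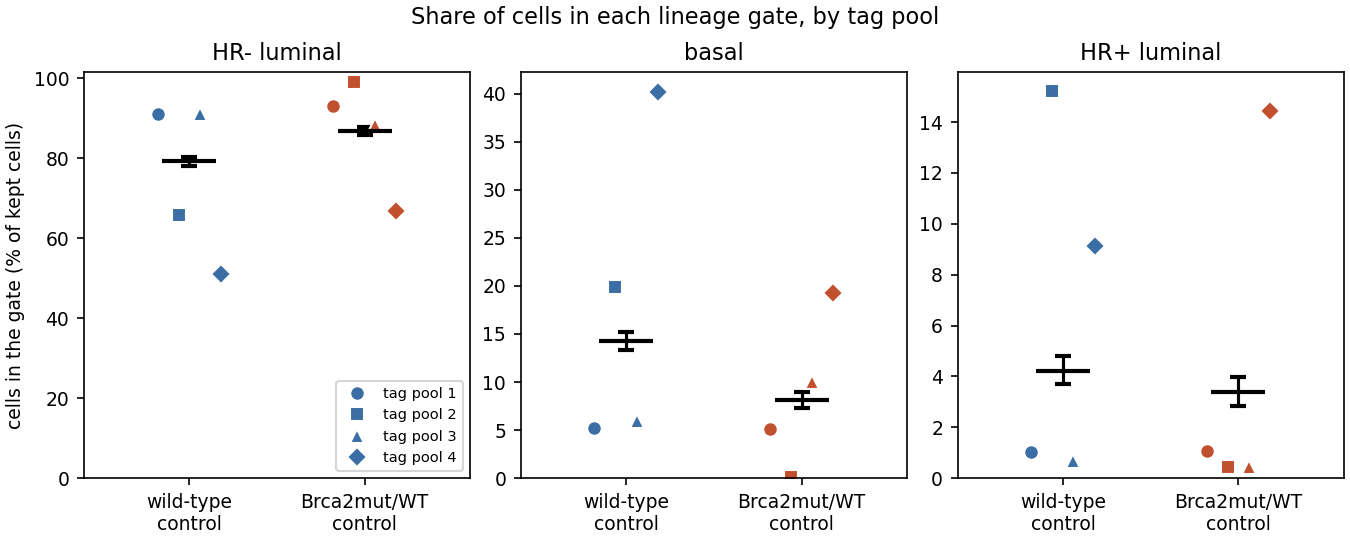
Share of kept cells (%) in the HR- luminal, basal and HR+ luminal gates for each tag pool of the wild-type control and Brca2mut/WT control libraries. Coloured points are tag pools, the black bar is the whole library and its error bar the Clopper-Pearson 95% interval. The HR- share ran from 51.0% to 91.1% in the wild-type pools and from 66.8% to 99.1% in the Brca2mut/WT pools.

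The pools also differed in expression. Within the HR- gate, each pool's deviations from the unweighted mean of its library's pools, on the log2 scale, were compared across 5410 genes. The genes are not independent replicates and, within a library, share its depth. The deviations of a library's pools cancel out for each gene, so the r values are not independent of each other. Wild-type pools 1 and 3 resembled Brca2mut/WT pools 1 and 3 (Pearson r between 0.7657 and 0.8425). Wild-type pool 2 resembled Brca2mut/WT pool 2 (r = 0.6875), as did wild-type pool 4 to a lesser degree (r = 0.5403). The 2 pools numbered 4 were less alike (r = 0.3899). Wild-type pools 1 and 3 held most wild-type HR- cells, 1751 and 1519, whereas pool 2 held 212. In the Brca2mut/WT library pool 2 held 681 HR- cells. Whether the pools differed by animal or by passage was not tested, as no key to the tags was used, and results are therefore given with their pools.

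Brca2 itself was detected at low levels in both genotypes. In HR- cells Brca2 (chr5:150522630-150570329, GRCm38) reached 5.16, 5.82, 6.05 and 4.12 CPM in the wild-type pools and 4.25, 3.92, 4.79 and 3.52 CPM in the Brca2mut/WT pools. Each Brca2mut/WT pool was below the wild-type pool of the same number, as for 8.13% of the genes tested in this gate. The ranges of the pools overlapped. The library level was 1.26-fold (1.11 to 1.44) lower in Brca2mut/WT, and 5.13 against 3.90 CPM in the HU pair. In basal cells the levels were 5.17 and 4.91 CPM, and in HR+ cells 3.16 and 1.45 CPM from 16 and 5 UMIs. All were under the 20 CPM required for a call. Reads near the 3' end of the gene do not show whether the truncated allele was transcribed. Of 206 genes within 10 Mb of Brca2, 30 were tested in HR-, 31 in basal and 33 in HR+ cells, and 1 was called in any lineage, Medag, which was 1.76-fold (1.47 to 2.11) higher in Brca2mut/WT basal cells, where 1.53% of all genes were called higher.

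In HR- luminal cells 30 of 5410 genes tested were higher in Brca2mut/WT (0.555%) and 13 were lower (0.24%). The median log2 ratio over all genes tested was 0.06, and 72.1% of genes had a ratio above 0. The split depended on the scaling, since trimmed mean of M values (TMM) and median-of-ratios scaling both gave 28 higher and 20 lower, or 58.3% of calls higher against 69.8% with totals. Nearly all higher calls were carried by Brca2mut/WT tag pool 2. Without this pool 3 genes were higher, including 4930469K13Rik and Gstp1, and 12 were lower, and 10 of the 43 calls were kept. Of the 5410 genes tested in the control pair, 24 were higher (0.444%) and 19 lower (0.351%) in the HU pair. Among them were 16 of the 30 (0.296%) and 6 of the 13 (0.111%).

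**Figure D2:**
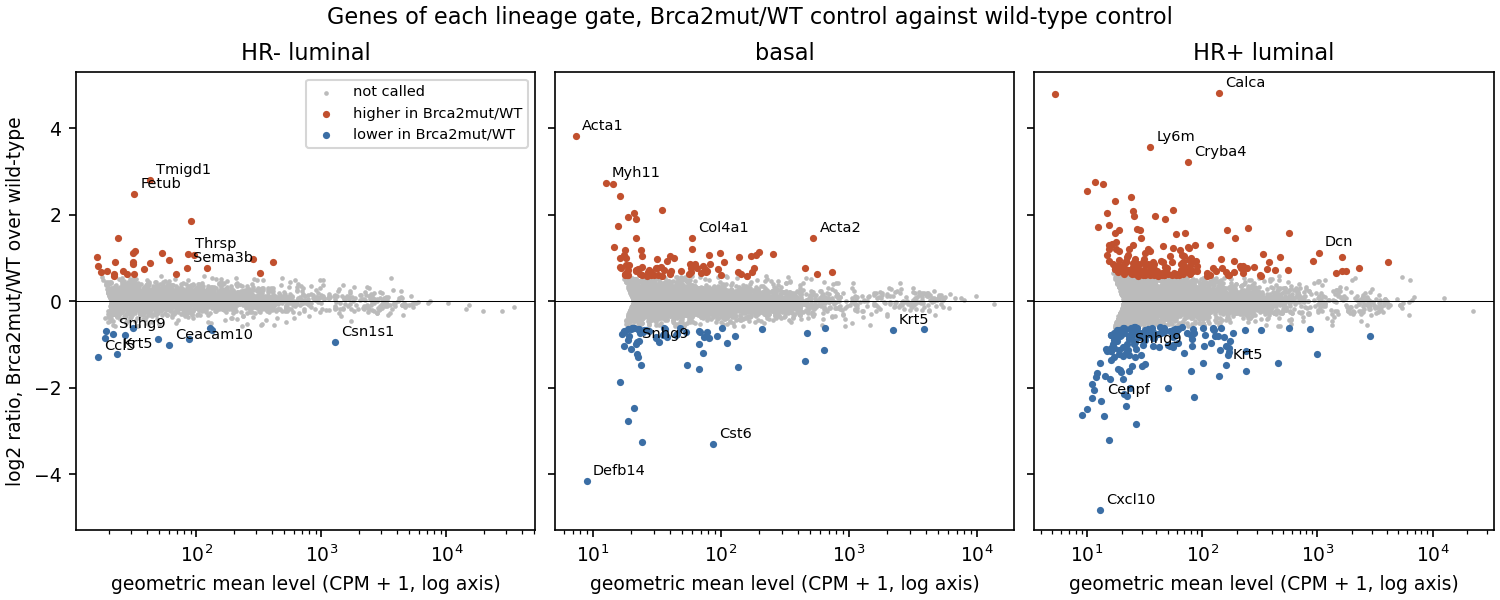
Log2 ratio of CPM + 1, Brca2mut/WT control over wild-type control, against the geometric mean level (CPM + 1, log axis) for every gene tested in each lineage gate. Each point is a gene, coloured where called higher or lower. HR- luminal cells, with the most UMIs, had 43 calls, basal cells 154 and HR+ luminal cells 362.

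The largest ratio of the higher genes was that of Tmigd1 (chr11:76902159-76916587), an immunoglobulin-domain membrane protein of epithelial cells. Tmigd1 reached 4.57, 87.2, 5.06 and 48.6 CPM in wild-type pools 1 to 4 and 9.03, 478, 7.15 and 9.18 CPM in Brca2mut/WT pools 1 to 4. It was high in both pools numbered 2 and in wild-type pool 4, and low in the other pools of both genotypes. The library ratio was 7.39-fold higher in Brca2mut/WT, but the log2 ratio was -0.17 without Brca2mut/WT pool 2. Fetub, a secreted protease inhibitor of the cystatin superfamily, followed the same pattern, at 7.03, 20.6, 6.55 and 50.3 CPM in wild-type and 12.6, 291, 10.1 and 25.5 CPM in Brca2mut/WT. Its library ratio was 5.92-fold (5.58 to 6.29) higher, and its log2 ratio was 0.39 without that pool. The non-coding transcript 4930469K13Rik was 3.70-fold (3.59 to 3.83) higher in the library. It remained called without Brca2mut/WT pool 2, with a log2 ratio of 0.73.

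Other genes higher in Brca2mut/WT HR- cells showed the same dependence on pool 2. Ncald, a neuronal calcium sensor, was 2.92-fold higher, with 124 CPM in Brca2mut/WT pool 2 against 10.4 to 16.1 CPM in the other Brca2mut/WT pools. Mfsd4a, a solute transporter family member, was 2.30-fold higher, with a log2 ratio of -0.01 without this pool. Lmod1, an actin filament nucleator, was 2.24-fold higher in the library. Its pools held 5.48, 142, 6.02 and 47.4 CPM in wild-type and 6.98, 181, 4.41 and 5.25 CPM in Brca2mut/WT, and the log2 ratio was -1.19 without Brca2mut/WT pool 2. Tbx3, a T-box factor needed for mammary development, was 1.95-fold higher and turned to -0.66. Thrsp, a regulator of fatty acid synthesis in the lactating gland, was 2.16-fold (2.09 to 2.23) higher, at 47.2, 112, 54.8 and 82.2 CPM in wild-type and 63.5, 276, 45.8 and 189 CPM in Brca2mut/WT. Thrsp was above wild-type in 3 of 4 same-numbered pools, and its log2 ratio of 0.54 without pool 2 was no longer called.

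Of the 30 higher genes, 2 had Brca2mut/WT pools that lay wholly above the wild-type pools. These 2 made up 0.037% of genes tested, a share that takes only genes both called and apart. How many of all genes tested had such pools, called or not, was not counted, so the 2 have no background share here. Sema3b, a secreted guidance molecule of the semaphorin family, reached 62.7, 37.9, 68.3 and 61.2 CPM in wild-type and 87.6, 202, 80.6 and 83.4 CPM in Brca2mut/WT. The library ratio was 1.72-fold (1.67 to 1.78), although the log2 ratio of 0.40 without Brca2mut/WT pool 2 was under the threshold. Gstp1, a glutathione transferase that detoxifies electrophiles, reached 17.7, 18.3, 18.9 and 24.1 CPM in wild-type and 29.7, 35.1, 28.2 and 36.5 CPM in Brca2mut/WT. Every Brca2mut/WT pool of Gstp1 was above every wild-type pool, the ratio was 1.65-fold (1.56 to 1.75), and the gene remained called without pool 2, with a log2 ratio of 0.66. The log2 ratio after HU was 0.77 for Gstp1 and 0.05 for Sema3b. In all 4 same-numbered pools, 4 of the 30 higher genes were above wild-type. Among them were also Cldn10, a tight junction claudin, and Oas1a, an interferon-induced sensor of double-stranded RNA. Their library ratios were 1.70-fold and 1.57-fold higher, and neither was called without pool 2 (log2 ratio 0.37 and 0.43). Of all 5410 genes tested, 603 (11.1%) were above wild-type in all 4 same-numbered pools.

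**Figure D3:**
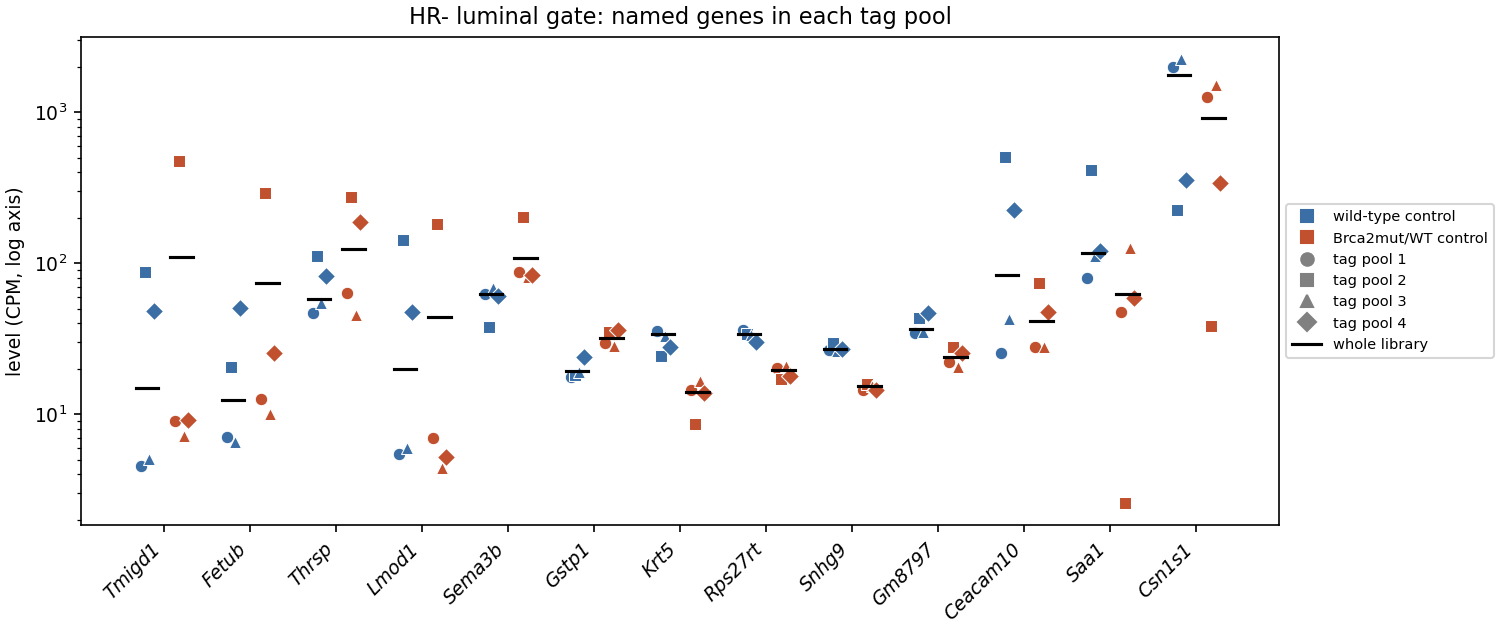
Level (CPM, log axis) of named genes in the HR- luminal gate for each tag pool of the wild-type control and Brca2mut/WT control libraries, with symbols for the pool number and black bars for the whole library. Tmigd1, Fetub and Lmod1 were highest in Brca2mut/WT pool 2, whereas Krt5, Rps27rt, Snhg9 and Gm8797 were lower in every Brca2mut/WT pool than in every wild-type pool.

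Of the 13 lower genes, 6 were below wild-type in all 4 same-numbered pools, as were 440 of all 5410 genes tested (8.13%). Among the 13, 4 were lower in every Brca2mut/WT pool than in every wild-type pool, namely Krt5, Rps27rt, Snhg9 and Gm8797. They made up 0.0739% of genes tested, a share that takes only genes both called and apart. How many of all genes had such pools was not counted, so the 4 have no background share here. These 4 were also the genes past 1.5-fold in all 4 same-numbered pairs of pools, where 0 genes were past it in the other direction. Krt5 (chr15:101707070-101712898), the type II partner of Krt14 in basal filaments, reached 35.5, 24.5, 33.2 and 27.9 CPM in wild-type HR- cells and 14.4, 8.66, 16.6 and 13.8 CPM in Brca2mut/WT. Krt5 was 2.43-fold (2.27 to 2.59) lower. It was also lower over all kept cells, at 394 CPM in wild-type and 143 CPM in Brca2mut/WT. The basal gene Acta2, smooth muscle actin, was 41.6 and 47.9 CPM in the HR- gate, and 83.3 and 111 CPM over all kept cells. In the HR- gate and over all kept cells, other basal keratins were lower in Brca2mut/WT. In the HR- gate Krt15 was 6.18 and 5.55 CPM, Krt17 6.39 and 4.93 CPM, and Krt14, which sets the gate, 88.1 and 29.7 CPM. Over all kept cells they were 24.8 and 14.9, 66.2 and 34.4, and 1548 and 575 CPM. Basal cells made up 14.3% of kept wild-type and 8.12% of kept Brca2mut/WT cells. In the basal gate Krt15 was 84.1 and 97.8 CPM and Krt17 462 and 392 CPM. In the HR+ gate Krt15 was 255 and 76.4 CPM and Krt17 47.5 and 98.7 CPM. The part of free RNA from basal cells in the Krt5 difference was not tested.

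Snhg9, a small nucleolar RNA host gene annotated as an antisense transcript (chr17:24719531-24719965), reached 26.7, 29.6, 26.2 and 27.3 CPM in wild-type and 14.5, 16.0, 15.4 and 14.4 CPM in Brca2mut/WT HR- cells. The pools of each library lay close together, and the ratio was 1.74-fold (1.63 to 1.86) lower in Brca2mut/WT. The ribosomal protein gene Rps27rt (chr9:114982366-114982739) reached 36.2, 33.9, 33.3 and 30.2 CPM in wild-type and 20.3, 17.0, 21.0 and 17.9 CPM in Brca2mut/WT, 1.75-fold (1.66 to 1.86) lower. Gm8797 (chr3:5750806-5751295), a ubiquitin-like gene model, reached 34.5, 43.8, 35.0 and 46.7 CPM in wild-type and 22.2, 28.0, 20.7 and 25.3 CPM in Brca2mut/WT, 1.55-fold (1.47 to 1.63) lower. Gm8797 lay at the threshold, with log2 ratios of -0.57 and -0.53 when Brca2mut/WT pool 1 or 3 was left out and -0.56 without wild-type pool 4. In the HU pair the log2 ratio was -0.61 for Krt5, -0.77 for Snhg9, -0.37 for Rps27rt and -0.72 for Gm8797.

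The same 4 genes were called lower in all 3 lineages, where 0 genes were called higher in all 3. Snhg9 was 2.05-fold (1.66 to 2.56) lower in basal and 2.26-fold (1.64 to 3.16) lower in HR+ cells. Rps27rt was 1.71-fold (1.46 to 2.02) and 1.57-fold (1.16 to 2.15) lower, and Gm8797 1.85-fold (1.55 to 2.21) and 1.71-fold (1.36 to 2.17) lower. Krt5 was 1.58-fold (1.55 to 1.62) lower in basal cells, where its pools overlapped, with 1618, 3102, 1350 and 3612 CPM in wild-type and 1998, 1442 and 2033 CPM in Brca2mut/WT pools 1, 3 and 4. The basal log2 ratio of Krt5 was -0.12 without wild-type pool 4.

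Rps27rt and Gm8797 share most of their sequence with other genes, so that their counts are uncertain. The coding sequence of Rps27rt is printed because it was identical over its 255 bases to that of Rps27, the parent ribosomal protein gene, in the reference transcripts (GENCODE M21, GRCm38).

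Rps27rt: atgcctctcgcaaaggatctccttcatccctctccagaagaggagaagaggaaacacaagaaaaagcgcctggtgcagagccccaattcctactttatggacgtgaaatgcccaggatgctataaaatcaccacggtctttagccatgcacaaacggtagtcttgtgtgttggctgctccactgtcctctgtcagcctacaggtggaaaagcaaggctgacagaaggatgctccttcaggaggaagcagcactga

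Of 285 windows of 90 bases along the 374-base Rps27rt transcript, 256 (89.8%) also occurred in Rps27. Rps27 was 1969 CPM in wild-type and 1688 CPM in Brca2mut/WT HR- cells, 2599 and 2584 CPM in basal cells, and 1564 and 1221 CPM in HR+ cells. For Gm8797, 251 of 401 windows (62.6%) occurred in another gene, 209 of them in the polyubiquitin gene Ubb, which was 1076 CPM in wild-type and 1206 CPM in Brca2mut/WT HR- cells. Snhg9 had 0 of 94 windows in another gene, and Krt5 had 75 of 2108 (3.56%), chiefly in Krt6a.

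Several secreted defence proteins were lower in Brca2mut/WT HR- cells. Of 11 antimicrobial and acute-phase genes tested, 4 were lower, beside 0.24% of all genes, and 0 higher, with a median log2 ratio of -0.53 against 0.06 over all genes. Saa1, an acute-phase apolipoprotein, reached 80.2, 413, 111 and 121 CPM in wild-type and 47.5, 2.59, 127 and 59.1 CPM in Brca2mut/WT. It was 1.86-fold (1.80 to 1.92) lower and nearly absent from Brca2mut/WT pool 2, while pool 3 lay within the wild-type range. Saa2, its close paralog, was 1.85-fold lower, the haemoglobin scavenger Hp 1.65-fold lower and the protease inhibitor Slpi 1.53-fold lower. None of the 4 remained called without Brca2mut/WT pool 2, when the list median was -0.35. Cd14, a coreceptor for bacterial lipopolysaccharide and a marker of luminal progenitors, was 1.59-fold (1.55 to 1.63) lower, at 167, 181, 181 and 109 CPM in wild-type and 116, 27.9, 165 and 71.5 CPM in Brca2mut/WT.

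Of 12 milk and secretory genes tested in HR- cells, 1 was lower, beside 0.24% of all genes, and 0 higher, with a median of -0.22. Csn1s1, the alpha-S1 casein, reached 2002, 226, 2258 and 355 CPM in wild-type and 1256, 38.4, 1523 and 339 CPM in Brca2mut/WT. It was lower in all 4 same-numbered pools, as were 8.13% of all genes tested, although the ranges overlapped. The library ratio was 1.92-fold (1.91 to 1.94). The HU pair gave a log2 ratio of -0.77. The milk fat globule protein Mfge8 was 5025 and 4016 CPM, and lactotransferrin (Ltf), an iron-binding defence protein, was 40.4 and 26.8 CPM, neither of which was called. Ceacam10, a secreted adhesion molecule, was 2.04-fold (1.96 to 2.12) lower, owing to 503 and 225 CPM in wild-type pools 2 and 4 against 73.9 and 47.8 CPM in Brca2mut/WT. In pools 1 and 3 it was 25.5 and 42.5 CPM in wild-type and 27.9 and 28.0 CPM in Brca2mut/WT. Ccl5, a chemokine, was 2.58-fold (2.38 to 2.79) lower, but 266 CPM were found in wild-type cells without a tag against 8.83 to 22.4 CPM in the wild-type pools.

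Interferon-stimulated genes, which limit viral replication, had ratios slightly above 0 in HR- cells. Of 28 tested, 28 had a log2 ratio above 0, beside 72.1% of all genes. Among them 1 was called higher (Oas1a), beside 0.555% of all genes, and 0 lower, and the median was 0.27. The summed level of the list was 4308, 6754, 5095 and 5950 CPM in wild-type and 5196, 9954, 4373 and 6875 CPM in Brca2mut/WT. The sum was below wild-type in Brca2mut/WT pool 3 and above it in the other same-numbered pools, with the largest gap in pool 2. Without Brca2mut/WT pool 2 the median was 0.06. Bst2, which tethers budding virus to the cell surface, had a ratio of 1.41 (1.39 to 1.42), at 738, 1238, 800 and 982 CPM in wild-type and 928, 2049, 767 and 1148 CPM in Brca2mut/WT. Ifit3, an antiviral effector, had a ratio of 1.42 (1.40 to 1.45), at 191, 314, 258 and 357 CPM in wild-type and 246, 682, 181 and 370 CPM in Brca2mut/WT. Neither gene was called. Of 7 interferon-inducible GTPases tested 0 were called, with a median of 0.22.

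Genes of class I antigen presentation, which display peptides to T cells, had library ratios above wild-type that the pools did not share. All 14 genes tested had a log2 ratio above 0, beside 72.1% of all genes. Their median was 0.30, against 0.06 over all genes, and was 0.02 without Brca2mut/WT pool 2. The summed level of the list was 6915, 10782, 6844 and 9384 CPM in wild-type and 7455, 17325, 5934 and 8336 CPM in Brca2mut/WT, above the wild-type pool of the same number in pools 1 and 2 and below it in pools 3 and 4. Only H2-Q6, a non-classical class I heavy chain that shares sequence with neighbouring class I genes, was called, 1.57-fold (1.51 to 1.62) higher. H2-Q6 was 48.1, 126, 42.6 and 77.2 CPM in wild-type and 50.7, 222, 36.7 and 67.5 CPM in Brca2mut/WT, and its log2 ratio was -0.16 without pool 2.

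Interferon acts through a factor complex that binds the interferon-stimulated response element. The core searched was GAAA, any 2 bases and GAAA again. It was looked for on both strands of RefSeq promoters (GRCm38.p6), from 250 bases before to 50 after the gene start. It occurred in 13 of the 25 interferon-stimulated genes matched (52%), 9 of 10 GTPases (90%) and 4 of 14 class I genes (28.6%). Over all 27025 genes it occurred in 3.99%, counting a match in any promoter of a gene. The promoter windows of the 3 interferon-stimulated genes described are shown with the motif in capitals, read 5′ to 3′ on the strand of the gene.

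Bst2, chr8:71537556-71537627, minus strand: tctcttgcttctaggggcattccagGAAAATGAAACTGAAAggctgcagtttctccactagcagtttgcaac

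Ifit3, chr19:34583348-34583419, plus strand: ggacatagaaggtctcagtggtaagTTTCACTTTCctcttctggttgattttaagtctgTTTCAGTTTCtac

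Oas1a, chr5:120907526-120907597, minus strand: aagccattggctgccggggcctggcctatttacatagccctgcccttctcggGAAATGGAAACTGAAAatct

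Each window held 2 matches, which overlapped in Bst2 and Oas1a and lay apart on the opposite strand in Ifit3. A match in these letters is not evidence of binding.

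Of 19 hypoxia and glycolysis genes tested in HR- cells, 18 had a log2 ratio above 0, beside 72.1% of all genes. There were 0 calls, and the median was 0.25, against 0.06 over all genes. The summed level of the list was 10630, 8443, 10240 and 7136 CPM in wild-type and 12209, 13336, 12698 and 7892 CPM in Brca2mut/WT, above the wild-type pool of the same number in each case. The glycolytic enzyme Eno1 had a ratio of 1.40 (1.39 to 1.41) and Pfkp, a phosphofructokinase, 1.34 (1.31 to 1.37), both under the threshold. The list median was 0.21 without Brca2mut/WT pool 2. After HU it was 0.04.

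p53 targets and DNA repair genes gave no calls in HR- cells. The median was 0.17 over 11 p53 targets, and 0.05 without Brca2mut/WT pool 2. Cdkn1a, the p21 inhibitor of cyclin-dependent kinases, was 170 CPM in wild-type and 246 CPM in Brca2mut/WT, with 124, 314, 134 and 353 CPM and 153, 500, 119 and 314 CPM in the pools, which overlapped. Of 32 homologous recombination and Fanconi genes, 1 reached 20 CPM, with a log2 ratio of 0.05. The median was 0.24 over 10 genes of G2 and mitosis and -0.18 over 21 immediate early and stress genes, with 0 calls in each.

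**Figure D4:**
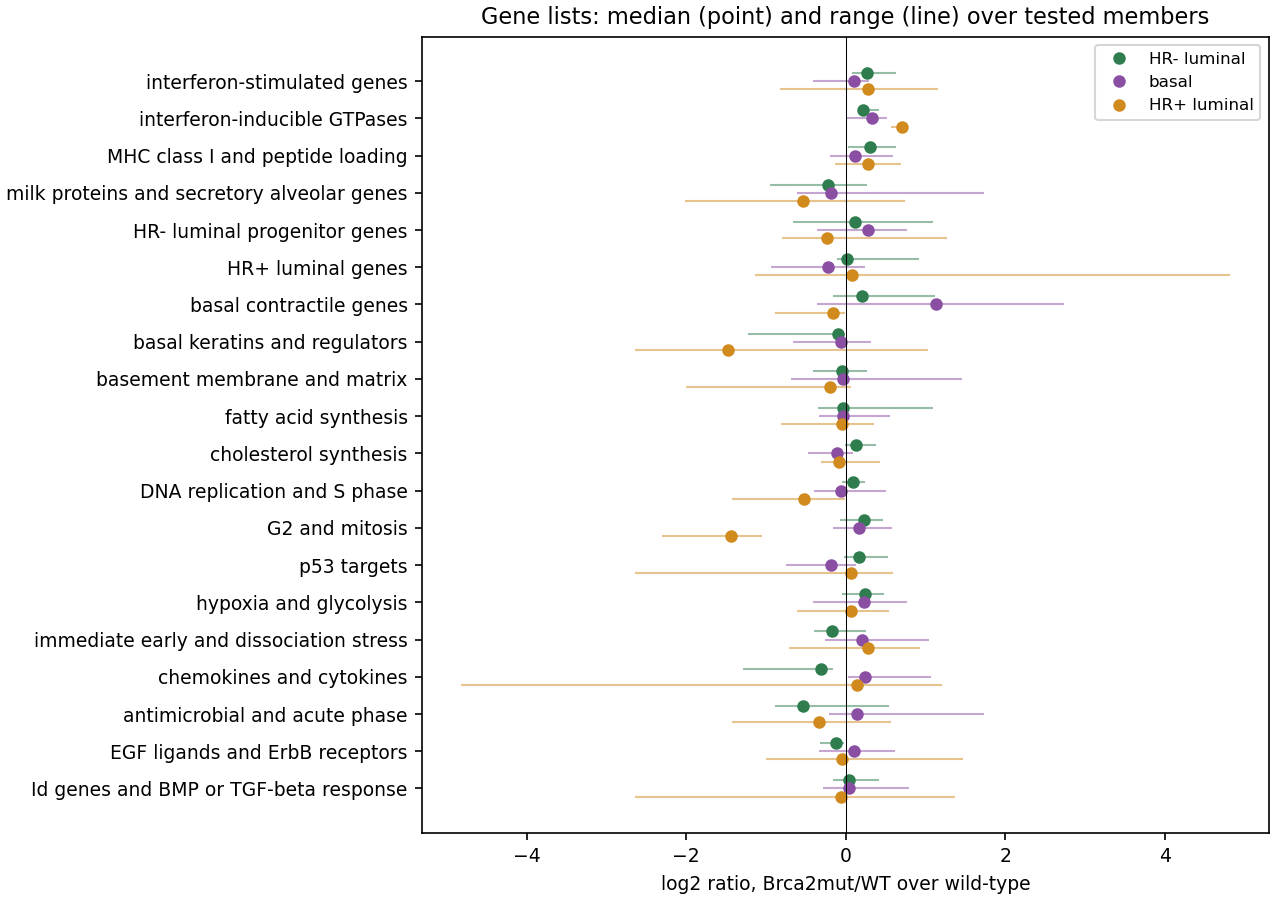
Median log2 ratio (points) and range (lines) of each gene list with at least 3 tested members in all 3 lineages, Brca2mut/WT control over wild-type control. In HR- luminal cells medians ran from -0.53 for antimicrobial genes to 0.30 for class I genes. Contractile genes reached 1.14 in basal cells. In HR+ cells mitotic genes were at -1.43 and basal keratins and regulators at -1.48. Some members of these basal and HR+ lists reached 20 CPM in only 1 library.

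In basal cells 89 of 5815 genes were higher in Brca2mut/WT (1.53%) and 65 were lower (1.12%). Brca2mut/WT pool 2 had too few basal cells, so 4 wild-type pools were set against 3. Without wild-type pool 4 there were 50 higher and 80 lower genes, and without Brca2mut/WT pool 4, 204 and 242. Of 14 contractile genes 9 were tested, with 6 called higher, 0 lower and a median log2 ratio of 1.14, against 0.003 over all genes. Myh11, Cnn1 and Mylk (3.89, 10.3 and 8.45 CPM in wild-type) reached 20 CPM only in Brca2mut/WT, which favours rises in this count. Over all 14 members the sum was 2464 CPM in wild-type and 3420 CPM in Brca2mut/WT. The pools overlapped, at 3077, 2013, 2395 and 2642 CPM in wild-type and 1824, 3694 and 3435 CPM in Brca2mut/WT. The 42 Brca2mut/WT basal cells without a tag reached 6245 CPM. Acta2 was 2.76-fold (2.66 to 2.86) higher, at 524, 148, 511 and 316 CPM in wild-type and 247, 1101 and 836 CPM in Brca2mut/WT pools 1, 3 and 4. Brca2mut/WT pools 3 and 4 were above every wild-type pool, whereas pool 1 lay within the wild-type range. The gene was found in 23.1% of wild-type and 23.5% of Brca2mut/WT basal cells, and 10 cells held 69.8% of its Brca2mut/WT UMIs. In HR- cells, which should lack it, the share was 14.5% and 10.4%, at a median of 24718 and 24990 UMIs per cell against 21981 and 20086 in basal cells. The HU pair gave a log2 ratio of 0.42.

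Cnn1, an actin-binding regulator of smooth muscle contraction, was 3.99-fold (3.29 to 4.85) higher, at 20.1, 5.69, 15.4 and 10.3 CPM in wild-type and 4.52, 40.9 and 47.7 CPM in Brca2mut/WT. Myh11, the smooth muscle myosin heavy chain, was 8.15-fold (6.15 to 10.9) higher, but was detected in 14 wild-type and 19 Brca2mut/WT cells. For both genes Brca2mut/WT pools 3 and 4 were above every wild-type pool and pool 1 was below. The myosin light chain kinase Mylk was 2.57-fold (2.03 to 3.26) higher, at 16.9, 10.8, 8.51 and 6.16 CPM in wild-type and 4.52, 15.6 and 35.6 CPM in Brca2mut/WT, with only pool 4 above the wild-type range. With no upper limit on genes per cell and under 10% mitochondrial UMIs allowed the list median was 0.59, and without Brca2mut/WT pool 4 it was 0.66.

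Of 16 basement membrane and matrix genes, 2 were higher, beside 1.53% of all genes, and 1 lower, beside 1.12%. Their median was -0.03. The collagen IV chains Col4a1 and Col4a2 were 2.80-fold (2.50 to 3.13) and 2.04-fold (1.79 to 2.33) higher. Col4a1 was 56.5, 19.9, 87.3 and 25.5 CPM in wild-type and 46.1, 72.6 and 144 CPM in Brca2mut/WT, with only pool 4 above the wild-type range. Fibronectin (Fn1) was 1.61-fold (1.44 to 1.81) lower, with a log2 ratio of 0.16 without wild-type pool 4. The luminal keratins Krt18 and Krt19 were 1.60-fold and 1.71-fold higher in Brca2mut/WT basal cells. Krt18 was 987, 613, 833 and 358 CPM in wild-type and 610, 1244 and 725 CPM in Brca2mut/WT, so the pools overlapped, and the log2 ratio of Krt19 was -0.24 without Brca2mut/WT pool 4. Of 20 hypoxia genes 2 were higher, beside 1.53% of all genes, the oxygen sensor Egln3 (1.71-fold) and the vasodilator peptide Adm (1.62-fold). The p53 target Zmat3, an RNA-binding protein, was 1.72-fold lower.

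**Figure D5:**
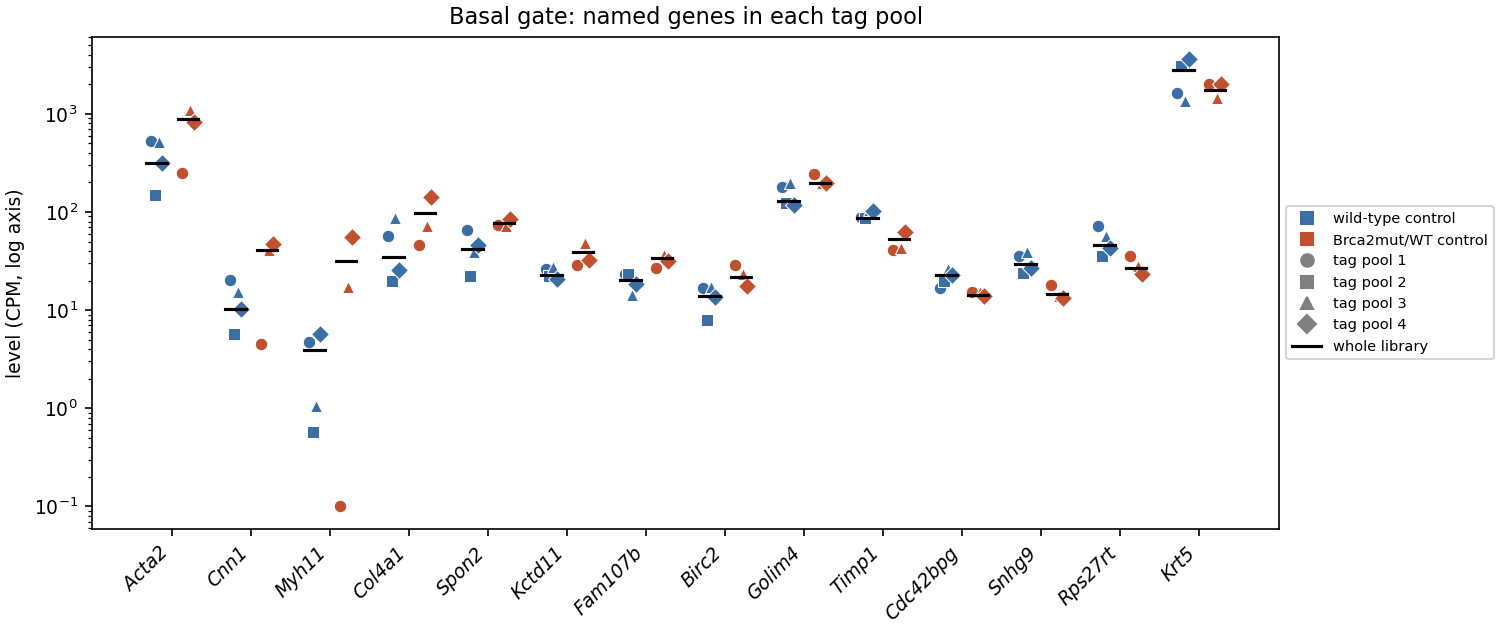
Level (CPM, log axis) of named genes in the basal gate for each tag pool with at least 20 basal cells, with symbols for the pool number and black bars for the whole library. A level of 0 is drawn at 0.1 CPM. Brca2mut/WT pools 3 and 4 were above the wild-type pools for Acta2 and Cnn1 and pool 1 was not, while Spon2 to Golim4 were higher, and Timp1 to Rps27rt lower, in every Brca2mut/WT pool.

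In basal cells 5 of the higher genes and 5 of the lower genes had pools that did not overlap. Each group of 5 made up 0.086% of genes tested, a share that takes only genes both called and apart. How many of all genes tested had such pools, called or not, was not counted, so neither group has a background share here. Spon2, a secreted matrix protein, was 65.0, 22.2, 39.4 and 46.2 CPM in wild-type and 74.2, 72.2 and 84.3 CPM in Brca2mut/WT, 1.83-fold (1.63 to 2.05) higher. Kctd11, a ubiquitin ligase adaptor that restrains Hedgehog signalling, was 1.75-fold higher, Fam107b 1.68-fold higher, Birc2, an inhibitor of apoptosis, 1.57-fold higher and the Golgi protein Golim4 1.51-fold higher. Golim4 lay at the edge, with a highest wild-type pool of 195 CPM and a lowest Brca2mut/WT pool of 197 CPM.

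The lower genes included Snhg9 and Rps27rt. Timp1, an inhibitor of matrix metalloproteinases, was 89.8, 87.0, 104 and 102 CPM in wild-type and 40.7, 42.6 and 63.1 CPM in Brca2mut/WT, 1.66-fold (1.48 to 1.86) lower. Cdc42bpg, a kinase acting downstream of Cdc42, was 1.61-fold (1.29 to 2.02) lower. After HU the log2 ratio was -0.35 for both Timp1 and Cdc42bpg. Of the higher genes 25 of 89, and of the lower genes 23 of 65, kept their side in all 3 same-numbered pools. Over all genes tested, 790 (13.6%) were above and 618 (10.6%) below wild-type in all 3. Of all 5815 genes, 2 were past 1.5-fold higher in all 3 (0.0344%), the antimicrobial peptide Defb1 and the creatine kinase Ckb, at library ratios of 1.63-fold and 2.11-fold. Past 1.5-fold lower in all 3 were 5 genes (0.086%), Rps27rt, Igfbp3, Olfr1369-ps1, Snhg9 and Timp1, with Igfbp3, a binding protein of insulin-like growth factors, 2.14-fold lower in the library.

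Several of the largest basal ratios rested on a few cells. In Brca2mut/WT, 174 of 191 UMIs of Acta1, the skeletal muscle actin, came from 1 cell. In wild-type, 1 cell held 1220 of 1229 UMIs of Crct1, 3661 of 4449 of Cst6 and 531 of 610 of Defb14, genes of cornified epithelium and epithelial defence. Lce3f, a late cornified envelope gene, was seen only in cells without a tag. The secreted protease Klk6, the crystallin gene Cryba4 and the surface protein gene Ly6k were 7.74-fold, 6.18-fold and 4.55-fold higher in Brca2mut/WT, and highest in Brca2mut/WT cells without a tag. Stfa3, a stefin protease inhibitor, was 7.70-fold lower, with 81.9 and 74.6 CPM in wild-type pools 2 and 4 and 1.06 to 6.86 CPM in the other pools of either genotype. With the top cell of each gene and library left out, 67 genes were higher and 76 lower. Of the 5815 genes tested in basal cells of the control pair, 188 were higher (3.23%) and 115 lower (1.98%) in the HU pair. Among them were 39 of the 89 (0.671%) and 20 of the 65 (0.344%).

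In HR+ luminal cells 187 of 6068 genes were higher in Brca2mut/WT (3.08%) and 175 lower (2.88%). The gate held 140 Brca2mut/WT cells, only pool 4 of that library had at least 20 of them, and wild-type pool 3 also had too few. Spread among Brca2mut/WT pools could therefore not be shown. Without Brca2mut/WT pool 4, 114 of the 362 calls were kept, and with no upper limit on genes per cell and under 10% mitochondrial UMIs allowed 142 were kept, with 111 genes higher and 110 lower. In the HU pair 33 of the 187 (0.544%) and 41 of the 175 (0.676%) were called the same way, and 30 (0.494%) and 6 (0.0989%) the opposite way. Of the 6068 genes tested in the control pair, 188 were higher (3.1%) and 172 lower (2.83%) in the HU pair.

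Calca, which encodes calcitonin and the peptide CGRP, had the largest log2 ratio of the HR+ genes. It was 0, 26.4 and 32.4 CPM in wild-type pools 1, 2 and 4 and 930 CPM in Brca2mut/WT pool 4, and 29.4-fold (24.6 to 35.4) higher in the library. It was detected in 7.59% of wild-type and 40.7% of Brca2mut/WT HR+ cells, against 0.309% and 1.39% of HR- cells at a similar depth (median 24608 to 24996 UMIs per cell in the 4 gates). In the HU pair the order was turned, with 1383 CPM in wild-type and 617 CPM in Brca2mut/WT. Ly6m, a surface protein of the Ly6 family, was 13.1-fold (9.65 to 18.1) higher, with 1 cell holding 123 of 417 UMIs, and the crystallin gene Cryba4 9.62-fold (7.93 to 11.8) higher. The tight junction gene Cldn6 was 8.34-fold (5.02 to 14.6) higher. Ly6a, the stem cell antigen Sca1, was 1.89-fold (1.85 to 1.93) higher, at 2718, 3106 and 3346 CPM in wild-type pools and 6574 CPM in Brca2mut/WT pool 4.

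Hormone receptor genes were not called. The oestrogen receptor Esr1, the progesterone receptor Pgr and their cofactor Foxa1 had log2 ratios of -0.07, 0.0024 and -0.15. Greb1, an oestrogen receptor target, was 2.03-fold (1.58 to 2.63) higher and the cofactor Cited1 2.20-fold (1.94 to 2.50) lower, with a log2 ratio of 0.14 without Brca2mut/WT pool 4. Dcn, decorin, which also belongs to the fibroblast list, was 2.18-fold (2.09 to 2.28) higher, at 295, 1814 and 228 CPM in wild-type pools and 1737 CPM in Brca2mut/WT pool 4. The fibroblast list summed to 697 and 1515 CPM in this gate, nearly all of it Dcn, and its other 10 members were under 20 CPM.

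Genes of G2 and mitosis were lower in Brca2mut/WT HR+ cells. Of 26 members 10 were tested, and all 10 were called lower, beside 2.88% of all genes, with a median log2 ratio of -1.43. The other members were under 20 CPM in both libraries. Over all 26 members the summed level was 431 CPM in wild-type and 136 CPM in Brca2mut/WT. Cenpf, a kinetochore protein, was 0, 21.5 and 28.4 CPM in wild-type pools and 4.01 CPM in Brca2mut/WT pool 4, 5.71-fold (3.45 to 10.1) lower. The spindle gene Hmmr was 4.84-fold, the anaphase activator Cdc20 4.37-fold and survivin (Birc5) 3.25-fold lower. With the top cell of each gene and library left out, Hmmr (18.3 and 2.64 CPM) and Cdc20 (15.3 and 3.52 CPM) were not called. Cenpf (23.4 and 4.07 CPM) and Birc5 (33.5 and 9.40 CPM) were still called. Genes this low in Brca2mut/WT could be tested only through their wild-type level, which favours falls in the count of 10. The summed list was 122, 457 and 409 CPM in the wild-type pools and 90.2 CPM in Brca2mut/WT pool 4. Without Brca2mut/WT pool 4 the median was -0.77. With no upper limit on genes and the mitochondrial limit raised to 10% together, the median was -0.16 and the log2 ratio of Hmmr 0.066. Ckap2, a spindle protein listed here among the p53 targets, was 8.23-fold lower under the stricter limits. With the wider limits its log2 ratio was 0.076.

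Several basal genes were also lower in Brca2mut/WT HR+ cells. Of 6 keratins and regulators tested, 4 were lower, beside 2.88% of all genes, and 1 higher, beside 3.08%, with a median of -1.48. With the gate genes left out, the summed list was 954 CPM in wild-type and 610 CPM in Brca2mut/WT. It was 609, 489 and 1481 CPM in wild-type pools 1, 2 and 4 and 406 CPM in Brca2mut/WT pool 4. Krt5 was 50.4, 74.3 and 550 CPM in wild-type pools and 10.8 CPM in Brca2mut/WT pool 4, 2.79-fold (2.47 to 3.15) lower. Its log2 ratio was 0.21 without wild-type pool 4, which held most of its UMIs. Krt15 was 3.34-fold, the differentiation inhibitor Id4 7.39-fold and vimentin (Vim) 2.93-fold lower, while Krt17 was 2.08-fold higher. Id4 (34.3 CPM in wild-type and 4.65 CPM in Brca2mut/WT) and Vim (40.0 and 13.6 CPM) reached 20 CPM only in wild-type. This favours falls in the count of 4. In all, 48 wild-type and 16 Brca2mut/WT cells passed both the basal and the HR+ gate. Sncg, a synuclein, and Sostdc1, a secreted antagonist of BMP and Wnt signalling, were 11.3-fold (6.60 to 21.0) and 7.87-fold (5.44 to 11.8) lower.

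Of 18 squamous genes 7 were tested in HR+ cells and 5 were higher, beside 3.08% of all genes. The median of the 7 was 1.09. It was -0.15 when tag pools were weighted equally, where Brca2mut/WT was pool 4 alone. The stress keratin Krt16 was 4.42-fold and the cornified envelope gene Sprr1b 5.55-fold higher, but in Brca2mut/WT pool 4 they were at 4.41 and 0.801 CPM. Krtdap, with the largest ratio of the list (log2 2.71), had 105 of its 117 Brca2mut/WT UMIs in 1 cell. With the top cell of each gene and library left out, Krtdap was 2.57 and 3.50 CPM and Sprr1b 4.77 and 12.8 CPM. Both were then under the 20 CPM needed for a call, whereas Krt16 was still called. Klk7, a protease of the cornified layer, had 93 UMIs in 1 Brca2mut/WT cell and 0 in wild-type, and Cxcl10, an interferon-induced chemokine, had 324 of its 347 wild-type UMIs in 1 cell.

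Interferon-stimulated genes were mixed in HR+ cells, with 3 of 26 higher, beside 3.08% of all genes, and 1 lower, beside 2.88%. Their median was 0.28, against 0.009 over all genes. Rsad2, the antiviral enzyme viperin, was 2.29-fold, Oas3 1.78-fold and Trim30a 1.65-fold higher, while Ifi27l2a was 1.78-fold lower. Rsad2 and Oas3 had log2 ratios of -0.02 and -0.33 without Brca2mut/WT pool 4. Of 16 GTPases only 3 were tested, and 2 were higher, Gbp7 (1.73-fold) and Iigp1 (1.66-fold). With the top cell of each gene and library left out, Oas3 was 11.5 CPM in wild-type and 20.5 CPM in Brca2mut/WT. Gbp7 was then 12.9 and 22.5 CPM. Members that reach 20 CPM only in Brca2mut/WT favour rises in these counts. B2m, the class I light chain, was 1.62-fold (1.57 to 1.67) higher. In basal cells 0 of 25 interferon-stimulated genes were called, with a median of 0.10. The caseins Csn1s1 and Csn3 were 4.17-fold and 2.32-fold lower in HR+ cells. Of 7 milk and secretory genes tested there, 2 were lower and 1 higher, beside 2.88% and 3.08% of all genes. The summed list was 9264, 3032 and 3604 CPM in wild-type pools 1, 2 and 4 and 3340 CPM in Brca2mut/WT pool 4. In the HU pair it was 2682 CPM in wild-type and 3144 CPM in Brca2mut/WT. Csn3 was 21470.8 and 18296.5 CPM in HR- cells, and the part of free RNA was not tested.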

How the data were processed

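Single cells of 4 libraries were profiled on the 10x Chromium platform, and the values are UMI counts per gene and cell, as deposited by the authors. Per the file headers the counts were made with Cell Ranger 6.1.1, whereas the submitters' processing notes name Cell Ranger 6.0.2, the mm10 genome and Seurat 4.0. Counts of 4 antibody tags stand in the same files.

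Cells, gates, CPM and calls were computed as described above, with a pseudocount of 1 CPM for log2 ratios, in Python 3.11.15 with numpy 2.4.6, scipy 1.17.1 and pandas 2.3.3. Tag-positive cells were found by clustering log10 tag counts into 2 groups (scikit-learn 1.9.0), and pools with fewer than 20 gated cells were left out. No doublet caller was run. Cells positive for more than 1 tag made up 1.79% of wild-type and 0.942% of Brca2mut/WT kept cells. edgeR 4.0.16 gave the TMM factors of 1 alternative.

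Named genes were Brca2, the largest called ratios with and without overlap of pools, genes called in all 3 lineages or in opposite ways in 2, up to 4 genes per list and called genes near Brca2. Members and lists were chosen with earlier results of these data known. Cldn10, Defb1, Ckb, Igfbp3, Krt16, Krt17 and Sprr1b were checked after their values were seen. A Brca2 count near the 3' end does not check the truncation. RefSeq promoters and GENCODE M21 transcripts supplied the sequences. A called basal gene is not reported here.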

Additional observations from a re-analysis of the deposited data

Results flagged for a closer look

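In 12 genes the genotype ratio was called in opposite directions in 2 lineages. The differences between lineages, given here on the log2 scale, were not tested. Between basal and HR+ luminal cells, genes higher in Brca2mut/WT basal and lower in Brca2mut/WT HR+ cells were the Golgi protein gene Golim4 (a difference of 1.42), the selenium-binding protein gene Selenbp1 (1.33), the fibrillar collagen gene Col11a1 (1.92), the actin-bundling gene Espn (1.41), the filamin regulator gene Rflna (1.45), the muscle-atrophy ubiquitin ligase gene Fbxo32 (1.57) and the lipocalin gene Apod (2.8). Genes higher in HR+ and lower in basal cells were the cornified envelope gene Sprr1a (2.15), osteopontin (Spp1, 1.35), the protease gene Klk7 (5.75) and the retinol-binding protein gene Rbp2 (2.41). Tbx3 was higher in HR- and lower in basal cells, by 1.86.

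Of these genes, Golim4 was the only one whose basal pools did not overlap. Klk7 rested on 1 Brca2mut/WT HR+ cell. Apod was 222 CPM in Brca2mut/WT basal pool 1 and 11.8 and 11.1 CPM in pools 3 and 4, against 23.9 to 77.2 CPM in wild-type pools.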

How the results depend on the processing

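No paired analysis was possible because each genotype had 1 library and the tag numbers are not known to mark shared animals or passages, so same-numbered pools were set side by side as a description only. The intervals cover counting error only, and the number of pools and cells limits the basal and HR+ results. Leaving out the top cell of each gene, cells without a tag, or both were alternatives chosen after seeing the data. The wider cell filter changed 2 limits together, with no upper limit on genes and under 10% mitochondrial UMIs, so the part of each was not tested. The counts of genes, higher and lower, are given in that order. Counts with equal pools or equal cells used 20 CPM and 1.5-fold only, without the Poisson intervals. They therefore follow a looser rule than the main counts, and the part of the weighting was not tested. In HR+ cells the equal-pool counts took Brca2mut/WT from pool 4 alone. In HR- cells (30 and 13) the filter at 5 CPM gave 65 and 28, at 50 CPM 14 and 6, and no filter 107 and 53. Lower genes numbered 28 with the wider cell filter, 34 with tag pools weighted equally, 21 with cells weighted equally, and 20 with TMM, with median-of-ratios scaling and without mitochondrial and ribosomal genes. With pools weighted equally 38.2% of calls were higher. In basal cells (89 and 65) the filters gave 221 and 156, 39 and 27, and 308 and 208; the wider cell filter gave 35 and 39, equal pools 46 higher and equal cells 98 lower. In HR+ cells (187 and 175) the 5 CPM filter gave 336 lower, 50 CPM 100 and 70, no filter 301 and 375, the wider cell filter 111 and 110, equal pools 333 and 323 and equal cells 328 and 347. Shares, Brca2mut/WT minus wild-type in percentage points, were 7.57 for HR-, -6.13 for basal and -0.834 for HR+ cells, and 12.1, -9.17 and -2.41 with equal pools. The basal value was -4.04 with exactly 1 tag.

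Leaving out each tag pool in turn gave 3 to 96 higher and 12 to 45 lower genes in HR- cells (the highest counts without Brca2mut/WT pool 3, and 79 and 38 without pool 1), 50 to 204 and 58 to 242 in basal cells, and 183 to 229 and 151 to 223 in HR+ cells. The share differences ran from 2.82 to 14.3, from -11.3 to -1.76 and from -2.74 to 0.294, the HR+ share being 0.0103 without Brca2mut/WT pool 1 and 0.294 without pool 3.

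Log2 ratios that changed sign were as follows, with the range over left-out tag pools, and the cause was not tested. In HR- cells without Brca2mut/WT pool 2 Tmigd1 was -0.17 (range to 3.29), Mfsd4a -0.015 (to 1.54), Lmod1 -1.19 (to 1.76), Tbx3 -0.66 (to 1.35) and H2-Q6 -0.16 (to 0.95), and Lmod1 was -0.021 with equal pools. In basal cells Spp1 was 0.28 with the wider cell filter, and Klk7 was 3.49 with exactly 1 tag, 3.46 with tags called by 70% dominance, 3.48 with equal pools, 3.48 without untagged cells and 0.72 with equal cells. Crct1 was 0.74 by dominance and 0.63 without the top cell, Lce3f 1.13 by dominance, 0.88 with equal cells and 1.09 without the top cell, and Rbp2 0.096 with equal cells. Krt19 was -0.24 (to 1.16) without Brca2mut/WT pool 4 and Fn1 0.16 (from -0.83) without wild-type pool 4. In HR+ cells with the wider cell filter Ckap2 was 0.076, Hmmr 0.066, Spp1 -0.11, Fbxo32 0.18 and Krt17 -0.71. With equal pools Krt16 was -0.71 and Sprr1b -0.999, and Krt16 was -0.24 without cells in both gates. Without Brca2mut/WT pool 3 Sprr1b was -0.98 (to 4.13) and Krt17 -0.55 (to 2.38). Without Brca2mut/WT pool 4 Rsad2 was -0.021 (to 1.26), Oas3 -0.33 (to 0.91), Spp1 -2.66 (to 1.16), Krt5 0.26 (from -3.24), Cited1 0.14 (from -1.79), Sprr1a -0.054 (to 1.01), Selenbp1 0.26 (from -1.19) and Rflna 0.64 (from -2.15), and Krt5 was 0.21 without wild-type pool 4.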
